A study of Mus musculus with 21 samples.

Results

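Tcf7 and Lef1 encode TCF1 and LEF1, the 2 genes described here out of 17516 genes in the count tables of 21 single-cell RNA libraries. Both proteins bind DNA through an HMG box and use beta-catenin as a coactivator and Groucho proteins (TLE) as corepressors. In CD8 T cells they are high in naive cells and in memory and stem-like cells, and TCF1 is widely used to mark cells that can self-renew, while effector differentiation is known to lower both.

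The cells were CD8+ OT1 T cells, which carry a transgenic receptor for an ovalbumin peptide. The naive library was taken before culture, at day 0. All other cells were activated with beads carrying anti-CD3 and anti-CD28, either without cytokine (days 3 and 5) or with IL-2, IL-15 or IL-2v at 5 or 50 IU/mL (days 3, 5 and 10). IL-2v is an IL-2 mutant that the labels also write as IL-2bg. Each condition was 1 library, so no value below has a replicate, no test was run, and intervals cover counting error only. The labels do not say how many mice or cultures stood behind a library, and the extraction text describes sorted tumour-infiltrating cells, which the cultured samples are not. The treatment labels of 6 libraries (IL-2 and IL-15 at 50 IU/mL) go against their titles, and the titles and the series design were followed. The dose steps of IL-2v do not use those libraries.

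Libraries held 3250 to 7105 kept cells and 10589950 to 32648496 UMIs (unique molecular identifiers, 1 per captured RNA molecule). At least 93.0% of cells in every library had a UMI of Cd3d, a T cell receptor subunit. Among markers of other cells, Ncr1 reached 0.0157% of cells, while Klrb1c reached 13.0%, Cd79b 7.45% and Cd68 7.39%. Of 105014 distinct cell barcodes, 1434 occurred in more than 1 library, with at most 19 shared by a pair of libraries.

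Tcf7 (ENSMUSG00000000782.15) lies on the minus strand at chr11:52252371-52283014 and Lef1 (ENSMUSG00000027985.14) on the plus strand at chr3:131110471-131224356 in GRCm38 (mm10). Lef1 shares 13.7% of its exonic bases with the antisense gene Gm43352, which is not a row of the tables. The use of strand in counting is not given in the sources used here, so such reads cannot be told apart. Both genes matched the RefSeq promoter table (GRCm38.p6), with 2 start sites for Tcf7 and 4 for Lef1. One Lef1 promoter is shown because both genes were lower at 50 IU/mL in 9 of 9 dose steps, by unequal amounts, and because the proteins themselves bind sequences around CTTTG. It covers the 250 bases before a Lef1 start, chr3:131110073-131110322 on the plus strand, with the matches to CTTTG on either strand in capitals:
Lef1 promoter: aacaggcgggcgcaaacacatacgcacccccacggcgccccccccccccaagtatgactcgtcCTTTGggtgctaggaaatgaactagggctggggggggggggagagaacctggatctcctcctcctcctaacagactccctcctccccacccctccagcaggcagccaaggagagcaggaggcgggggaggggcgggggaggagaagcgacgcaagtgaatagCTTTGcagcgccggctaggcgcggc
This window held 2 matches, the other 3 Lef1 windows (1 of which overlaps it) held 1, 1 and 3, and neither Tcf7 window held one. The Tcf7 windows cover only the bases before the 2 listed starts. Any other Tcf7 promoter was not searched, so this is not a lack of CTTTG in Tcf7 promoters as such. Of all 32851 promoter windows, 48.6% held CTTTG in the same 250 bases. At 1 Tcf7 start, the sequence just after the start held GTAAACA, the core bound by FOXO factors, at chr11:52282581-52282601 on the minus strand, in capitals here:
Tcf7 start: tataggaGTAAACAgaccccc
GTAAACA occurred in 3.65% of all 300-base windows (both strands), and TTCNNNGAA, the STAT site, in 8.3% of them and in no window of either gene. No match overlapped another motif. These are matches of letters and not measured binding.

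Both genes were highest in naive cells and lower in all 20 activated libraries. Values are CPM, the summed UMIs of a gene per 1000000 UMIs of the library. Naive cells had 471 CPM of Tcf7 (95% exact Poisson interval 462 to 481, 8705 UMIs) and 467 CPM of Lef1 (458 to 477). At day 3 without cytokine Tcf7 stood at 256 CPM (249 to 263) and Lef1 at 217 CPM (211 to 223). The difference in log2(CPM + 1), the scale of all steps below, was -0.88 for Tcf7 and -1.11 for Lef1. A gene is called here when this difference is at least 1 in size, or 2-fold, and it is tested when it has 20 CPM in either library. Lef1 was thus called lower on activation and Tcf7 was not, with a difference between them of -0.23, and 8.31% of 6171 genes tested were at least 2-fold lower. The call of Lef1 was lost in cells without a UMI of the proliferation genes Mki67 or Top2a (-0.79) and with means of single cells (-0.98). The cells left out for such a UMI were 3.01% of naive cells and 60.0% of those at day 3. At day 5 without cytokine Tcf7 stood at 348 CPM and Lef1 at 331 CPM, each nearer to naive than at day 3.

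Among activated libraries Tcf7 ranged from 0.506% to 78.2% of its naive level. In IL-2 at 5 IU/mL it was 188, 295 and 177 CPM on days 3, 5 and 10. In IL-2 at 50 IU/mL it was 50.5, 69.4 and 2.38 CPM, the last from 65 UMIs (interval 1.84 to 3.04). In IL-2v at 5 IU/mL it was 164, 183 and 95.6 CPM, and at 50 IU/mL 65.2, 57.0 and 17.1 CPM. The lowest 2 libraries were thus the 50 IU/mL cultures of IL-2 and IL-2v at day 10, at 0.506% and 3.62% of naive. In IL-15 at 5 IU/mL Tcf7 was 211, 252 and 369 CPM, and at 50 IU/mL 197, 206 and 144 CPM. The IL-15 culture at 5 IU/mL was the highest activated library at day 10, at 78.2% of naive.

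Lef1 followed the same order of cytokines over a narrower range. In IL-2 at 5 IU/mL it was 196, 318 and 179 CPM on days 3, 5 and 10, and at 50 IU/mL 112, 171 and 70.7 CPM. In IL-2v at 5 IU/mL it was 174, 225 and 130 CPM, and at 50 IU/mL 123, 138 and 94.6 CPM. In IL-15 at 5 IU/mL it was 238, 277 and 349 CPM, and at 50 IU/mL 218, 270 and 201 CPM. Its lowest library, IL-2 at 50 IU/mL on day 10, kept 15.1% of the naive level, against 0.506% for Tcf7. In the order of levels, 8 of 20 neighbouring pairs of libraries overlapped in their intervals for Tcf7 and 10 of 20 for Lef1. For Tcf7 these held the run from IL-15 at 5 IU/mL on day 3 (211 CPM) down to IL-2 at 5 IU/mL on day 10 (177 CPM), in which each library overlapped the next.

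**Figure D1:**
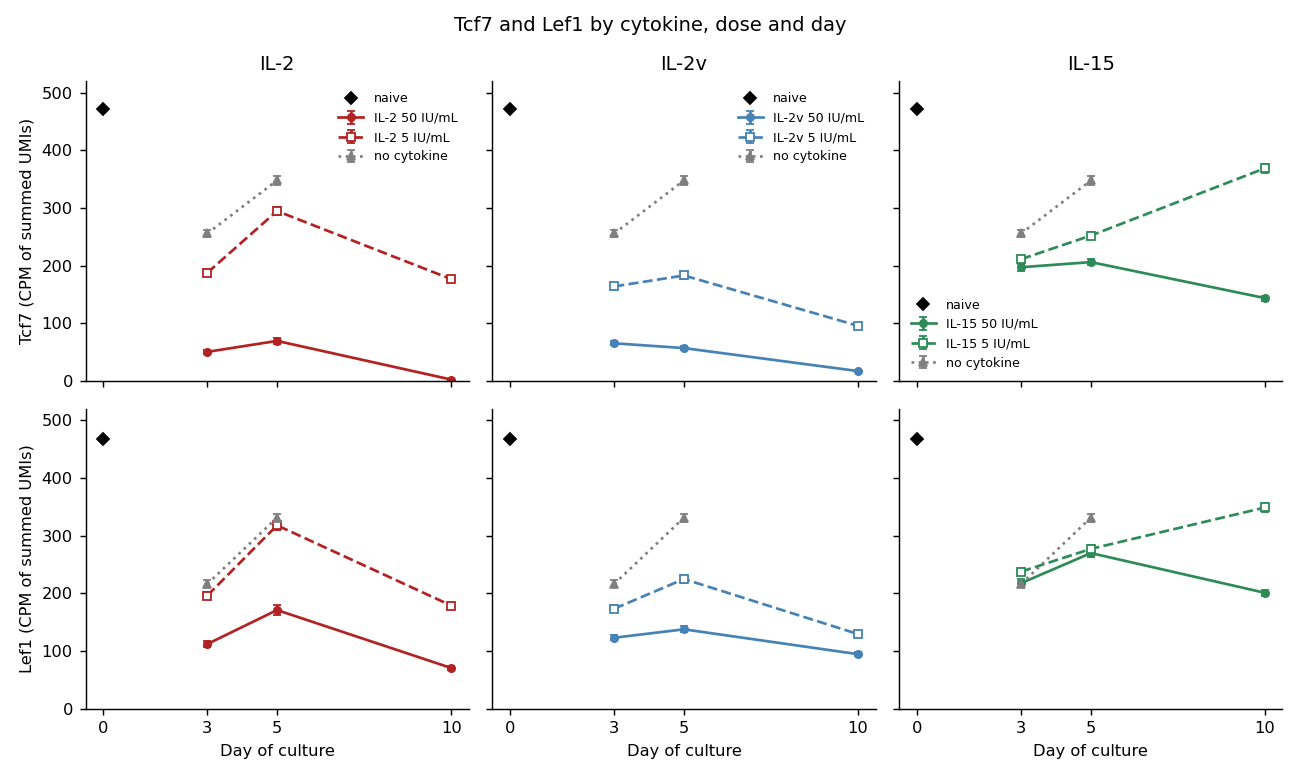
CPM of Tcf7 (upper row) and Lef1 (lower row) against day of culture, 1 column per cytokine, with filled points for 50 IU/mL, open points for 5 IU/mL, triangles for no cytokine and a diamond for naive cells; bars are 95% exact Poisson intervals. Tcf7 is at 2.38 CPM in IL-2 at 50 IU/mL on day 10, while Lef1 is at 70.7 CPM there.

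The 10-fold higher dose went with less Tcf7 in 9 of 9 steps of 50 minus 5 IU/mL, and Tcf7 was at least 2-fold lower in 7 of 9. Of 4418 genes tested in all 9 steps, 3 genes (0.0679%) were at least 2-fold lower in 7 or more. These were Tcf7, Klf2 (a factor that maintains quiescence and lymph node homing) and the noncoding gene Gm26740. Lef1 was also lower in 9 of 9 steps but at least 2-fold lower in 1, and 17.3% of those genes were at least 2-fold lower in 1 or more.

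In IL-2 the step of Tcf7 was -1.87 at day 3, -2.07 at day 5 and -5.71 at day 10. The steps of Lef1 were -0.80, -0.89 and -1.33. All 3 Tcf7 steps were called, and of Lef1 only that of day 10. The background of genes at least 2-fold lower was 1.98% at day 3, 3.4% at day 5 and 14.5% at day 10, so a 2-fold drop was common at day 10. In that step 0 of 5832 genes had a lower value than Tcf7, while 474 had a lower one than Lef1. The 2 libraries with the least Tcf7 also had the highest shares of some markers of other cells, and the lowest summed level of B cell markers. Klrb1c was found in 8.71% of cells in IL-2 at 50 IU/mL on day 10 and 13.0% in IL-2v, and Cd68 in 7.39% and 2.85%. The summed level of 5 myeloid markers was 15.3 and 6.08 CPM there, against 0.901 to 9.54 CPM in the other 19 libraries, and that of 2 NK cell markers 21.3 and 36.7 CPM, against 0 to 22.0 CPM. That of 5 B cell markers was 2.64 and 1.61 CPM, against 4.50 to 17.9 CPM. The NK cell value of 22.0 CPM was in IL-2 at 5 IU/mL on day 10, the other library of this step. In IL-2 and IL-2v at 50 IU/mL on day 10 Ncr1, Lyz2, Csf1r and Adgre1 were at 0, and the part of the other markers in the Tcf7 step was not tested. Lef1 at day 5 came to -1.08 when libraries were scaled by trimmed means (TMM) and to -1.04 with totals free of ribosomal and mitochondrial genes, past the 2-fold line.

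In IL-2v the Tcf7 steps were -1.32, -1.67 and -2.42 at days 3, 5 and 10, against backgrounds of 0.677%, 1.13% and 6.14%. Lef1 was -0.49, -0.70 and -0.45, never at least 2-fold lower. Few genes had lower values than Tcf7 (20, 8 and 19), and 1373 had lower ones than Lef1 at day 10. In IL-15 the Tcf7 steps were -0.10, -0.29 and -1.36 and those of Lef1 -0.13, -0.04 and -0.79. Only Tcf7 at day 10 was called, with 2.37% of genes lower. In the steps of days 3 and 5 with IL-15, 0% and 0.239% of genes were at least 2-fold lower.

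The genes parted where IL-2 or IL-2v was high. The gap, the Lef1 step minus the Tcf7 step, was at least 1 in 4 of 9 dose steps: 1.07, 1.18 and 4.39 in IL-2 and 1.97 in IL-2v at day 10. With a pseudocount of 10 CPM the first was 0.95 and the third 2.69. The gap was 0.82 and 0.96 in IL-2v at days 3 and 5. In IL-15 it was -0.03, 0.25 and 0.56, so that there the genes stayed within 2-fold of each other's change. By cytokine, Tcf7 was called lower in 3 of 3 steps for IL-2, 3 of 3 for IL-2v and 1 of 3 for IL-15, and Lef1 in 1, 0 and 0. Against naive cells, the gap was at least 1 in 5 libraries and was largest, at 4.42, in IL-2 at 50 IU/mL on day 10.

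**Figure D2:**
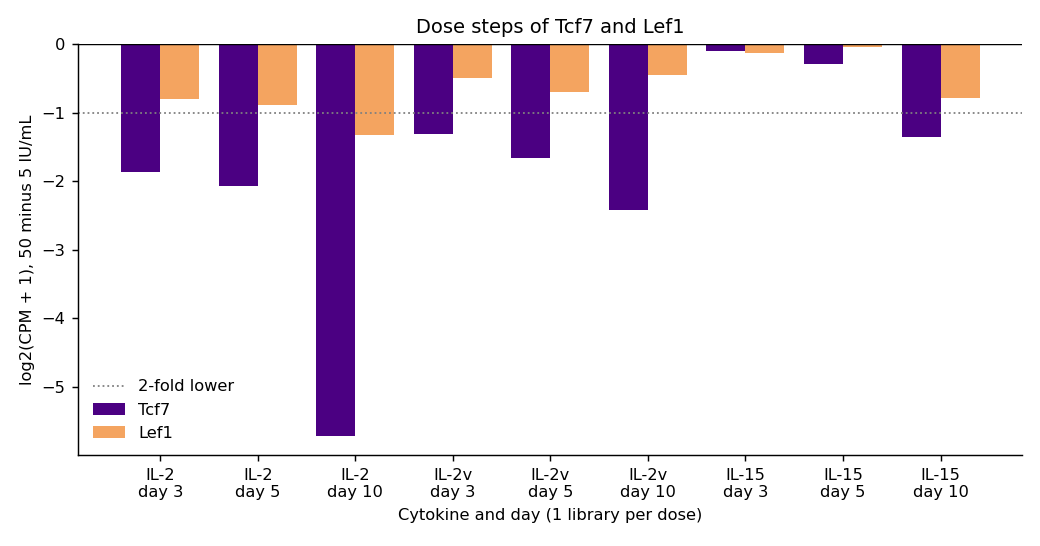
Bars give the difference of log2(CPM + 1) between 50 and 5 IU/mL for Tcf7 (purple) and Lef1 (orange), for each cytokine and day, and the dotted line marks 2-fold lower. The Tcf7 bar passes the line in 7 of 9 steps, and the Lef1 bar in 1, IL-2 at day 10.

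**Figure D3:**
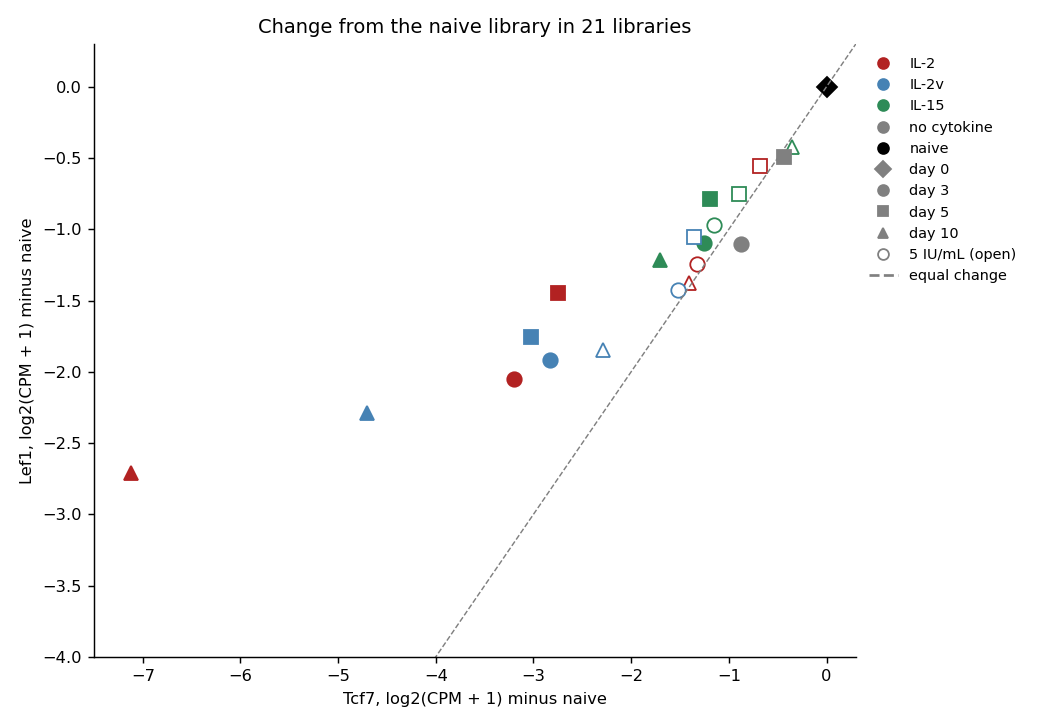
Each point is 1 library, placed by its change from the naive library in Tcf7 (horizontal) and Lef1 (vertical), both as log2(CPM + 1); the dashed line marks equal change, colour the cytokine, shape the day and open points 5 IU/mL. Libraries at 5 IU/mL lie near the line, and IL-2 at 50 IU/mL on day 10 lies at -7.13 for Tcf7 and -2.71 for Lef1.

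Over time the gap between the steps of the genes stayed under 1 from day 3 to day 5 and reached 1 in 2 of 6 cultures from day 5 to day 10, those with 50 IU/mL of IL-2 (3.12) or IL-2v (1.14). From day 3 to day 5 Lef1 was higher in all 7 cultures (0.16 to 0.69) and Tcf7 in 6 (-0.19 to 0.65), none by 2-fold, where 2.04% of genes were at least 2-fold higher. From day 5 to day 10 Tcf7 was called lower in 2 of 6 cultures and Lef1 in 1, against a background of 7.68%. IL-2 at 50 IU/mL gave -4.38 for Tcf7 and -1.26 for Lef1, with 19.4% of genes lower. With a pseudocount of 10 CPM the Tcf7 step was -2.68 and the gap 1.51, and the gap in IL-2v was 0.81. With TMM scaling Lef1 in IL-2 at 50 IU/mL came to -0.93. IL-2v at 50 IU/mL gave -1.68 and -0.54, with 11.6% of genes lower. IL-15 at 5 IU/mL was the 1 culture in which both genes were higher at day 10 than at day 5, by 0.55 for Tcf7 and 0.33 for Lef1.

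Against the no-cytokine library of the same day, which all 6 cytokine libraries of a day share, Tcf7 was lower in 12 of 12 comparisons. It was at least 2-fold lower in 4 of 12, where 2.04% of genes were. These were IL-2 at 50 IU/mL on days 3 and 5 (-2.32 and -2.31) and IL-2v at 50 IU/mL (-1.95 and -2.59). Lef1 in the same libraries was -0.94, -0.95, -0.81 and -1.26, and the last alone was called. Both scaling alternatives brought the 2 IL-2 values of Lef1 past 2-fold. The smallest difference of Tcf7 was -0.24, in IL-2 at 5 IU/mL on day 5.

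At equal dose and day, IL-2v and IL-2 stayed within 2-fold of each other in both genes in 5 of 6 pairs. Tcf7 in IL-2v minus IL-2 was -0.19, -0.68 and -0.88 at 5 IU/mL on days 3, 5 and 10, and 0.36, -0.28 and 2.42 at 50 IU/mL. Only the last was called, where IL-2v had 17.1 and IL-2 2.38 CPM, and it was 1.13 with a pseudocount of 10 CPM. Over these 6 pairs 3.99% of genes tested were called higher in IL-2v and 2.55% lower. Lef1 stayed between -0.50 and 0.42. With 1 library each, values inside 2-fold do not show that the cytokines acted alike.

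Tcf7 was at least 2-fold higher in IL-15 than in IL-2 in 4 of 6 pairs, where 3.21% of genes were higher. At 5 IU/mL on day 5 it was lower in IL-15 (252 against 295 CPM, -0.22), and on day 3 the difference was 0.17. At 50 IU/mL the called differences were 1.95, 1.56 and 5.42 on days 3, 5 and 10, and at 5 IU/mL 1.06 on day 10. The value of 1.06 was 0.92 with means of single cells and 0.95 without cells over 2 times the median UMIs, short of 2-fold. Lef1 was called higher in 1 pair, 50 IU/mL at day 10 (1.49). It lay just short of 2-fold at 50 IU/mL on day 3 (0.95) and at 5 IU/mL on day 10 (0.96), and more pairs were called under some alternatives. In IL-2v minus IL-15, Tcf7 was called lower in 4 of 6 pairs and Lef1 in 2, with 2.48% of genes lower. The 2 pairs that held both genes were those of day 10. Tcf7 was 3.86-fold and Lef1 2.70-fold lower at 5 IU/mL, and 8.41-fold and 2.12-fold lower at 50 IU/mL.

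The highest and the lowest library were the same by the share of cells with a UMI. Each cell was thinned to 2000 UMIs, and a cell counts as positive with at least 1 UMI of the gene. This left out 57 to 393 shallower cells per library, most in IL-2 at 50 IU/mL on day 5. Tcf7 was found in 57.1% of naive cells (exact binomial 95% interval 55.7 to 58.6%) and Lef1 in 57.0% (55.5 to 58.5%). In IL-2 at 50 IU/mL on day 10, 27 of 4693 cells had a Tcf7 UMI, or 0.575% (0.379 to 0.836%), while 14.0% had one of Lef1 (13.0 to 15.0%). In IL-2v at 50 IU/mL on day 10 the shares were 3.54% for Tcf7 (3.04 to 4.09%) and 16.6% for Lef1. In IL-15 at 5 IU/mL on day 10 they were 49.5% and 48.1%. Without thinning the Tcf7 shares of these 4 libraries were 77.0%, 1.17%, 7.62% and 72.4%, and those of Lef1 74.8%, 30.1%, 36.7% and 70.9%. No library had over 4 cells with at least 2 of the B cell markers, so the share that free RNA gives in a cell type without these genes was not measured.

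The UMIs of both genes were spread over somewhat fewer cells than an even spread gives. The observed share over the share expected if every cell had the same mean was 0.80 to 0.96 for Tcf7 (median 0.917) and 0.92 to 0.98 for Lef1 (median 0.953). The least even library was IL-2 at 5 IU/mL on day 3 for Tcf7. In naive cells 33.1% had both, 23.999% Tcf7 alone, 23.9% Lef1 alone and 19.0% neither.

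Cells with both genes were 1.02 to 1.41 times as many as the product of the 2 shares, with a median of 1.161. Cell depth moves with both genes: at the same 2000 UMIs, the third of cells with the fewest UMIs had a higher share of Tcf7 and of Lef1 than the third with the most in 21 of 21 libraries (at day 3 without cytokine 42.9% against 29.3% for Tcf7 and 40.7% against 30.0% for Lef1). Its part in the co-detection, in the splits of cells and in the shares left after thinning was not tested. In 15 of 21 libraries the share of cells with Lef1 was higher among Tcf7-positive than Tcf7-negative cells, with intervals that did not overlap. In IL-2 at 5 IU/mL on day 3 it was 41.0% (38.0 to 44.1%) against 29.6%. In naive cells it was 58.0% against 55.7%, with overlapping intervals. In IL-2v at 50 IU/mL on day 10, 23.4% of Tcf7-positive cells (17.4 to 30.4%) and 16.3% of the others had Lef1. In that library 15.8% of cells had Lef1 alone, 2.71% Tcf7 alone and 0.829% both. Co-detection was not counted for other pairs of genes, so it is not shown to be particular to Tcf7 and Lef1.

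**Figure D4:**
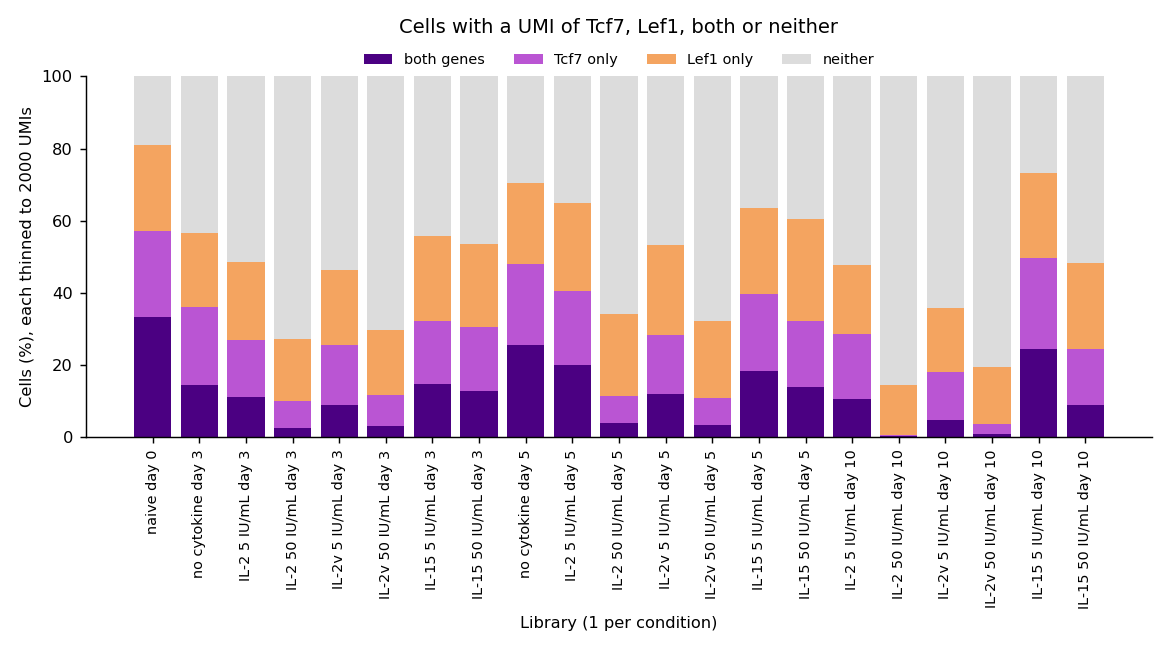
Stacked bars give the percent of cells, each thinned to 2000 UMIs, with a UMI of both genes, Tcf7 alone, Lef1 alone or neither, 1 bar per library. Cells with both genes fall from 33.1% in naive cells to 0.107% in IL-2 at 50 IU/mL on day 10, where Lef1 alone marks 13.9%.

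Other members of the family were hardly detected: Tcf7l1 reached 1.88 CPM and Tcf7l2 2.06 CPM. Of 16 genes of the beta-catenin pathway, 9 were tested in the IL-2 step of day 10 and 2 were at least 2-fold lower, with a median of -0.57 beside -0.30 over all genes and 14.5% of all genes lower. The 2 were Bcl9l, which bridges beta-catenin to its coactivators (39.2 against 12.5 CPM, -1.58), and Ctnnb1, beta-catenin itself (116 against 54.4 CPM, -1.07). Axin2, a common target of the pathway, never passed 22.1 CPM. Among Groucho corepressors Tle3, Tle4 and Tle5 were each tested in 9 of 9 dose steps. Tle5 stood at 392 to 645 CPM in every library and was called in no step. Tle4 was at least 2-fold lower in the steps of IL-2 and IL-2v at day 10 (-1.63 and -1.07), where 14.5% and 6.14% of all genes were. Tle3 was called higher in 1 step, where 4.58% of all genes were over the 9 dose steps.

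Of 10 regulators that act upstream in T cell development, 7 were tested in the day 10 steps of IL-2 and of IL-2v. Ets1 and Gata3 were called lower in both steps and Bcl11b in that of IL-2, where 14.5% of all genes were lower in IL-2 and 6.14% in IL-2v. Ets1 fell from 196 to 50.4 CPM (-1.94) in IL-2. Bcl11b, which maintains T cell identity, fell from 195 to 82.7 CPM (-1.23). Over the 9 dose steps Rbpj was called higher in 2, where 4.58% of all genes were. Tox was called lower in 1 of the 6 in which it was tested, where 3.38% of all genes were over the 9. Stat5a and Stat5b, which carry the signal of all 3 cytokines, were called in no step, and Stat5a was tested in 5 of 9.

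Many naive and memory genes were lower at 50 IU/mL on day 10. In the IL-2 step 16 of 17 tested members were at least 2-fold lower (median -2.85), and in IL-2v 12 of 20 (median -1.85, all genes -0.13). In IL-15 7 of 21 were lower and Eomes higher. Of all genes 14.5%, 6.14% and 2.37% were lower in these steps. Effector genes were higher in 12 of 15, 10 of 14 and 4 of 7 tested members in IL-2, IL-2v and IL-15, where 6.57%, 5.02% and 3.33% of all genes were. A gene was tested with 20 CPM in either library, and the shares of all genes used the same rule. Some members of both lists thus passed only at the dose where they were higher. The lists were chosen with earlier results of these data known, and these counts are a description.

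Over the 21 libraries the level of Lef1 followed that of Tcf7 with a Pearson r of 0.913 and a Spearman rho of 0.958 in log2(CPM + 1), and it ranked 48th of 5494 genes by r. The genes most like Tcf7 by r were Cd27 (r = 0.975), a costimulatory receptor of naive and memory cells, then Cbx7, Gm26740, Cmah and Ubald1. By rho Cd27 was at 0.964 and the others named at 0.810 to 0.916, below the 0.958 of Lef1. The most opposite were Capn2 (r = -0.916), Sec61a1 and Ss18l2. The genes most like Lef1 were 4930523C07Rik (r = 0.956), Bcl11b (r = 0.955), Itga4, Hivep2 and Fam78a, and the most opposite Ubl4a (r = -0.947), Etfb and Glrx3. The libraries share day, dose and cytokine, so these values describe likeness only.

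Within a library, several naive and memory genes were higher in Tcf7-positive cells, and Id2 and granzyme genes lower. This was compared in the 20 libraries with at least 50 positive cells, which leaves out IL-2 at 50 IU/mL on day 10. Ccr7, which guides cells to lymph nodes, Klf2, Bach2, Slamf6 and Dapl1 were higher in Tcf7-positive cells in 20 of 20 libraries. The medians were 0.56 for Ccr7 and 0.88 for Dapl1, which was at least 2-fold higher in 9 libraries. Id2, which promotes effector differentiation, was lower in 20 of 20 (median -0.55). Gzma was lower in 16 of 16 and at least 2-fold lower in 11 (median -1.84), and Gzmb was lower in 18 of 18. By library, 0% to 0.95% of all genes tested were at least 2-fold lower. Others went the other way or were mixed: Eomes was higher in 1 of 10 libraries, Myb in 6 of 11 and Bcl2 in 14 of 20, and of the effector genes Irf8 was higher in 12 of 15 and Runx3 in 15 of 20. How many of all genes keep the same sign in every library was not counted, so these sign counts have no background.

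At least 1 naive and memory gene was 2-fold higher in 10 of 20 libraries, and none was in the other 10, which include naive cells. Over the 20 libraries 0.172% of all genes tested were 2-fold higher. The 2 libraries with the most such genes are described here. The first was IL-2v at 50 IU/mL on day 10. Its 175 Tcf7-positive cells had 83.5 CPM of Klf2 (65.1 to 105) against 18.1 CPM in the 4773 others, and 73.9 against 13.8 CPM of Dapl1. Gzmc was 113 against 799 CPM and Gzma 75.1 against 490 CPM. There 7 of 15 naive and memory genes were at least 2-fold higher, where 2.07% of all genes were, and 4 of 14 effector genes were lower, where 0.924% were. A gene was tested with 20 CPM in either class of cells, and the shares of all genes used the same rule. Klf2 and Dapl1 thus passed only through the positive cells, and these counts are a description. In IL-2 at 5 IU/mL on day 10, with 1739 positive cells, 4 of 19 naive and memory genes were higher and 4 of 13 effector genes lower, beside 0.124% and 0.372% of all genes. Slamf6, a receptor of stem-like cells, was 38.1 against 15.5 CPM, so it too passed only through the positive cells. Gzma was 252 against 1439 CPM.

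The same split by Lef1 gave a smaller median for Ccr7, Dapl1 and Gzma, and a like one for Klf2 (0.31 against 0.30 by Tcf7) and Bach2 (0.29 against 0.27). Ccr7 was higher in Lef1-positive cells in 20 of 20 libraries with a median of 0.22, and Dapl1 in 19 of 19 with 0.32. Gzma was higher in 3 of 16, with a median of -0.32. A call by 1 UMI mixes cells of high and low level, and the sizes of the 2 splits were not tested against each other.

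**Figure D5:**
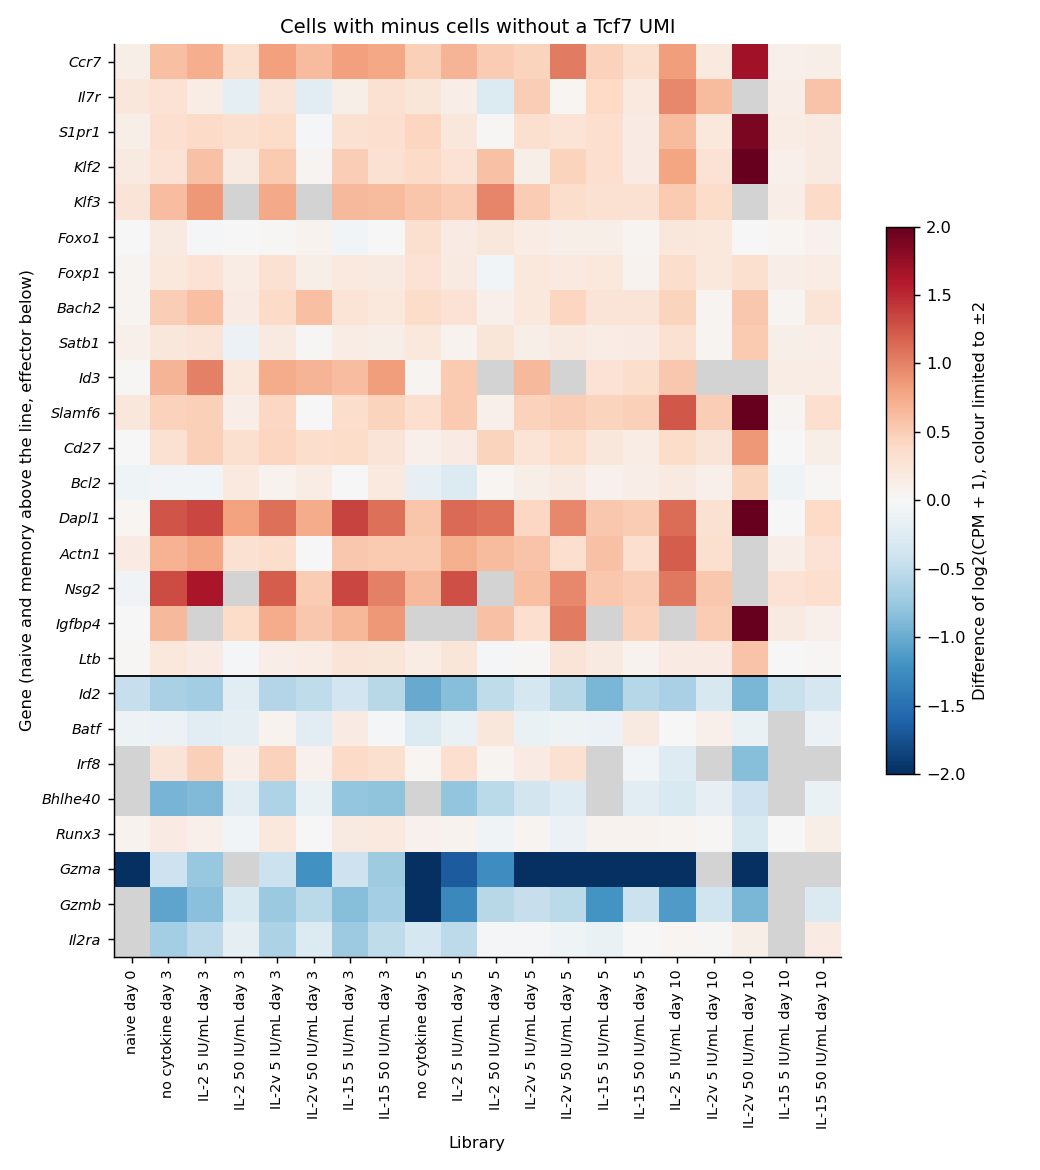
Colour gives the difference of log2(CPM + 1) between cells with and without a thinned Tcf7 UMI for 26 genes with a value in at least 15 libraries (rows) in 20 libraries (columns), with naive and memory genes above the line and effector genes below; grey marks under 20 CPM in both. Ccr7 and Dapl1 are red in 20 of 20 libraries, and Gzma is blue in each of its 16.

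Cells with a UMI of Mki67 or Top2a, which mark proliferation, had less Tcf7 in most libraries. Among Tcf7-positive cells the share of such cells was lower than among the others in 12 of 21 libraries, higher in 1, and the intervals overlapped in 8. For Lef1 it was lower in 14, higher in 0 and overlapping in 7. At day 3 without cytokine it was 43.3% of Tcf7-positive cells (40.8 to 45.8%) against 54.6%. In IL-2v at 5 IU/mL on day 10, 25.1% of 1109 Tcf7-positive cells were Mki67- or Top2a-positive, against 33.5% of the others. The 1 library in the other direction was IL-2v at 50 IU/mL on day 10, with 27.4% (20.97 to 34.7%) against 17.0%, and 24.3 against 14.9 CPM of Tcf7. The share of Mki67- or Top2a-positive cells also moved with dose, from 55.3% to 63.5% in IL-2 and from 57.4% to 79.0% in IL-2v at day 3. At day 10, where the Tcf7 steps were largest, it was lower at 50 IU/mL in IL-2 (11.8% to 8.16%) and IL-2v (32.0% to 17.3%) and higher in IL-15 (2.50% to 7.46%). At day 5 it was higher at 50 IU/mL in all 3 cytokines, from 12.3% to 46.9% in IL-2, 34.5% to 59.7% in IL-2v and 15.0% to 19.8% in IL-15. Its part in the Tcf7 steps was not tested. The shares here come from thinned cells. Separately, all cells with such a UMI at full depth were left out, 86.9% of those in IL-2v at 50 IU/mL on day 3. In the remaining cells Tcf7 was at least 2-fold lower in 7 of 9 dose steps and Lef1 in 1. A cell without such a UMI is not shown to be noncycling. The share of Mki67- or Top2a-positive cells was not compared between cells with and without a UMI of other genes.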

How the data were processed

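Single-cell RNA was measured in 21 libraries of mouse CD8+ OT1 T cells, 1 per condition. The authors deposited raw UMI counts per gene and cell, 1 table per library. Per the submitters' processing notes, Cell Ranger, Seurat 4.0.1 and 3.0.2 and the build mm10 were used, with no role or order given. Annotation, cell filters and doublet removal are not given in the sources used here.

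From the deposited counts, cells were dropped below 1000 UMIs, below 500 genes or above 10% mitochondrial UMIs, and the rest were summed per library into CPM. No doublet caller was run, and leaving out cells over 2 times the median UMIs was an alternative. Steps are differences of log2(CPM + 1), and shares come from cells thinned at random to 2000 UMIs (seed 1), leaving out shallower cells. Intervals are exact Poisson and Clopper-Pearson at 95%. Calls and thinning were tested on simulated data. Python 3.11.15, numpy 2.4.6, scipy 1.17.1, pandas 2.3.3 and, for TMM factors, edgeR 4.0.16 in R 4.3.3 were used.

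The text names Tcf7, Lef1, members of the lists, and for each of the 2 genes its 5 top and 3 bottom genes by r. Klf2 and Gm26740 beside the dose steps were named after their values were seen. Values of some list members are not reported here, and the heat map draws list genes with a value in at least 15 libraries, with 1 of these left out. The genes and lists were chosen with earlier results of these data known. Alternatives were TMM, other totals, means of single cells, a pseudocount of 10, other thinning depths, no low-value filter, fewer cells, and leaving out a day.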

Additional observations from a re-analysis of the deposited data

Results flagged for a closer look

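In IL-2v at 50 IU/mL on day 10, 27.4% of the Tcf7-positive cells had a UMI of Mki67 or Top2a (exact binomial 95% interval 20.97 to 34.7%), against 17.0% of the Tcf7-negative cells. The direction was opposite to that of the 12 libraries in which Tcf7-positive cells had the smaller share. The difference between libraries was not tested, since each condition was 1 library. The value rests on 175 Tcf7-positive cells.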

How the results depend on the processing

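Every step at least 2-fold in size in either gene, or in the gap, kept its direction under all alternatives run. Over single steps and gaps other than the activation step, 1187 values kept their side of the 2-fold line, 23 moved past it and 8 fell short of it. The counts of dose steps with Tcf7 at least 2-fold lower (7) and of gaps of at least 1 (4) stayed within 1.5 times under every alternative except leaving out day 10, which leaves fewer steps. A scaling factor of a library cancels in the gap apart from the pseudocount. TMM and other totals thus could hardly move the gaps and do not test them. Without day 10, the dose steps gave 4 for Tcf7, 0 for Lef1 and 2 gaps. The pairs of IL-15 and IL-2 then gave 2 for Tcf7, 0 for Lef1 and 0 gaps, those of IL-2v and IL-15 2, 0 and 0, and those of IL-2v and IL-2 0 for Tcf7 and 0 gaps. Lef1, which lay near the 2-fold line in several comparisons, was called lower in 2 dose steps with TMM scaling and 2 with totals free of ribosomal and mitochondrial genes. Against no cytokine it was called in 3 comparisons with each of those and in cells without Mki67 or Top2a, and in 2 with means of single cells and without cells over 2 times the median UMIs. It was called in 0 steps from day 5 to 10 with TMM. In IL-15 minus IL-2, Lef1 was called higher in 2 pairs with TMM, in cells without Mki67 or Top2a and with means of single cells, and in 3 with totals free of ribosomal and mitochondrial genes. Gaps of at least 1 there came to 2 in the last 3 of these settings. With a pseudocount of 10 CPM, gaps came to 0 in IL-2v minus IL-2 and 1 from day 5 to 10. The activation step was -0.47 for Tcf7 and -0.79 for Lef1 in cells without Mki67 or Top2a, and -0.75 and -0.98 with means of single cells. The cause was not tested in any of these. TMM moved the median of all genes by -0.19 to 0.30 in dose steps and by up to 0.43 in time steps. All 42 shares of cells left their intervals without thinning and all 42 at 1000 UMIs, as those settings change the depth, while the number of libraries with more Lef1 among Tcf7-positive cells stayed within 1.5 times. No paired analysis by replicate was run, since each condition had 1 library. Counting depth limits Tcf7 most in IL-2 at 50 IU/mL on day 10, with 65 UMIs.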

Other observations

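Zbtb7b, which encodes the CD4 lineage factor ThPOK that TCF1 and LEF1 are known to regulate in the thymus, had low levels that were higher at 50 IU/mL in several steps. Its values were 12.5 and 28.9 CPM in IL-2 at day 5, 8.33 and 27.3 CPM in IL-2 at day 10 and 12.2 and 27.1 CPM in IL-2v at day 5, for 5 and 50 IU/mL. In these steps 14.1%, 6.57% and 4.21% of all genes were at least 2-fold higher, and Zbtb7b passed the filter of 20 CPM only at 50 IU/mL. Other CD4 lineage genes had low levels: Cd4 reached 4.39 CPM, Foxp3 0.379 CPM and Cd40lg 8.34 CPM.

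Eomes, a T-box factor of memory cells on the naive and memory list, was tested in 7 dose steps. It was at least 2-fold higher in 3 of them and 2-fold lower in none. In IL-15 at day 10 it was 14.2 CPM at 5 IU/mL and 48.3 CPM at 50 IU/mL, the library pair in which Tcf7 was 369 and 144 CPM. There 3.33% of all genes were at least 2-fold higher.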
